A study of Mus musculus with 6 samples.

Results

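Hedgehog signalling was followed through 9 of its genes, taken by symbol from the 24982 rows of the deposited gene counts, in keratinocytes sorted from mouse back skin with and without its nerves. They are the ligand gene Shh, the receptor and binding protein genes Ptch1, Hhip and Boc, the transducer gene Smo, the inhibitor gene Sufu and the transcription factor genes Gli1, Gli2 and Gli3. All 9 had a row, and 8 of them, all but Shh, had enough counts to enter the test across genes. Both groups came from the same 3 mice, numbered 890, 892 and 899, which carried Lgr6-EGFP-Ires-CreERT2 together with R26loxP-stop-loxP-tdTom and had received 20 µg of tamoxifen on postnatal day 42. The denervated libraries (n = 3) came from left back skin 4 weeks after its cutaneous nerves were removed by blunt dissection. The normal libraries (n = 3) came from the right side, where the nerves stayed intact. No sham dissection of that side is described, so nerve loss cannot be told apart from the surgery itself or from left against right. The reporter is switched on where Lgr6 is expressed and is inherited by descendants of those cells, so the sorted pool can hold Lgr6-lineage keratinocytes of several skin compartments. Cells were sorted by the tdTomato label and by CD49f, the integrin encoded by Itga6 that anchors basal keratinocytes. All mice received the analgesic meloxicam after surgery, and the age at sampling is not given.

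Hedgehog ligands bind Ptch1, which otherwise holds Smo inactive. Active Smo acts through the primary cilium to release Gli factors from Sufu and from proteolytic processing, and Gli proteins then switch on target genes that include Gli1, Ptch1 and Hhip. Gli1 and Ptch1 are therefore widely read as gauges of the pathway. In mouse skin, sensory neurons are a known source of Shh for keratinocytes of the upper hair follicle and the touch dome. The cell bodies of these neurons lie outside the skin, so their Shh mRNA would not be part of sorted keratinocytes. The comparison of sides bears on whether receiving cells carried less mRNA of the pathway's targets once the nerves were gone.

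The libraries held 9610071, 14021730 and 13232950 counts on the denervated side and 26167593, 20724439 and 13801154 on the normal side, in the order of animals 890, 892 and 899. Counts-per-million values (CPM) are scaled by TMM factors, which adjust library totals for differences in composition, and intervals in brackets are exact 95% binomial (Clopper-Pearson) intervals, which cover counting error only. The basal keratinocyte genes were abundant, with Krt5 at 19818 ± 2063 CPM on the denervated side and 19577 ± 703 CPM on the normal side (SD, n = 3 each). The label's gene Lgr6 stood at 93.8 ± 14.5 and 97.2 ± 8.64 CPM, in that order. Fibroblast and dermal papilla markers summed to 1.51 to 2.11 CPM in denervated and 1.99 to 4.67 CPM in normal libraries over 8 genes. Lum was at 0 in every library and Col1a2 was the highest. The sum was lower on the denervated side in each animal, as were Col1a1 and Col1a2. The list was not uniform: Pdgfra and Crabp1 were scarce but higher on the denervated side in each animal. Pdgfra averaged 0.157 CPM there and 0.0781 CPM on the normal side, and Crabp1 0.291 and 0.172 CPM. The 6 Schwann cell markers summed to 1.02 to 1.45 CPM in denervated and 0.714 to 2.76 CPM in normal libraries, with Cdh19 and Scn7a at 0. The 5 Merkel cell markers summed to 0.215 to 0.841 CPM in denervated and 0.572 to 1.09 CPM in normal libraries, with Krt20 at 0. The sums were 4.44 to 15.04 CPM and 6.96 to 8.41 CPM for 6 hair matrix and shaft markers, and 12.4 to 23.9 CPM and 16.6 to 19.3 CPM for 5 melanocyte markers, of which Mlana was at 0. Mitf made up most of the melanocyte sum, at a mean of 17.1 and 16.1 CPM, in that order of sides. Dct averaged 0.957 and 0.773 CPM, and Tyr did not exceed 0.229 CPM in any library. Pmel averaged 0.226 and 0.742 CPM and was lower on the denervated side in each animal. The 4 immune cell markers, led by Cd74, summed to 79.1 to 99.8 CPM and 55.5 to 96.4 CPM, with the denervated side above in each animal.

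None of the 8 tested genes passed edgeR's quasi-likelihood test of denervated against normal with the animal as a block, which compares the sides within each mouse, at a Benjamini-Hochberg adjusted p below 0.05, where 3.46% of all 12310 tested genes did. None had an unadjusted p below 0.05 either, against 18.2% of all tested genes. DESeq2 with the block, which gave an adjusted p to Ptch1, Smo, Gli3 and Boc only, called 0 of these 4 and 489 genes in all. Limma on log2(TPM + 1) with the block called 1 gene in all and edgeR without the block 0, so their 0 among the 8 genes carries no information. In none of the 8 did the CPM of the denervated and normal libraries separate without overlap, as they did in 19.0% of all tested genes. The median log2 fold change of the 8 genes was −0.07, and that of all tested genes −0.02. In bulk RNA, fewer cells that express a gene and less of its mRNA per cell cannot be told apart.

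Per length, in the transcripts-per-million values (TPM) that the authors deposited, the transducer Smo was the most abundant of the 9 genes and the ligand Shh the least. Smo averaged 61.3 ± 4.19 TPM over the 6 libraries (SD), above 86.0% of the 17112 genes with any TPM. The co-receptor gene Boc followed at 26.6 ± 3.52 TPM. Ptch1 at 9.74 ± 1.33 TPM, Gli3 at 8.86 ± 1.346 TPM and Sufu at 7.84 ± 1.22 TPM came next. Each of these 3 overlapped its neighbour in range, so their order is not resolved. Gli1 averaged 2.43 ± 1.60 TPM, Gli2 1.05 ± 0.638 TPM, Hhip 0.457 ± 0.351 TPM and Shh 0.0170 ± 0.0278 TPM, each again overlapping the next in range. The libraries of Smo and Boc, of Boc and Ptch1, and of Sufu and Gli1 did not overlap.

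**Figure D1:**
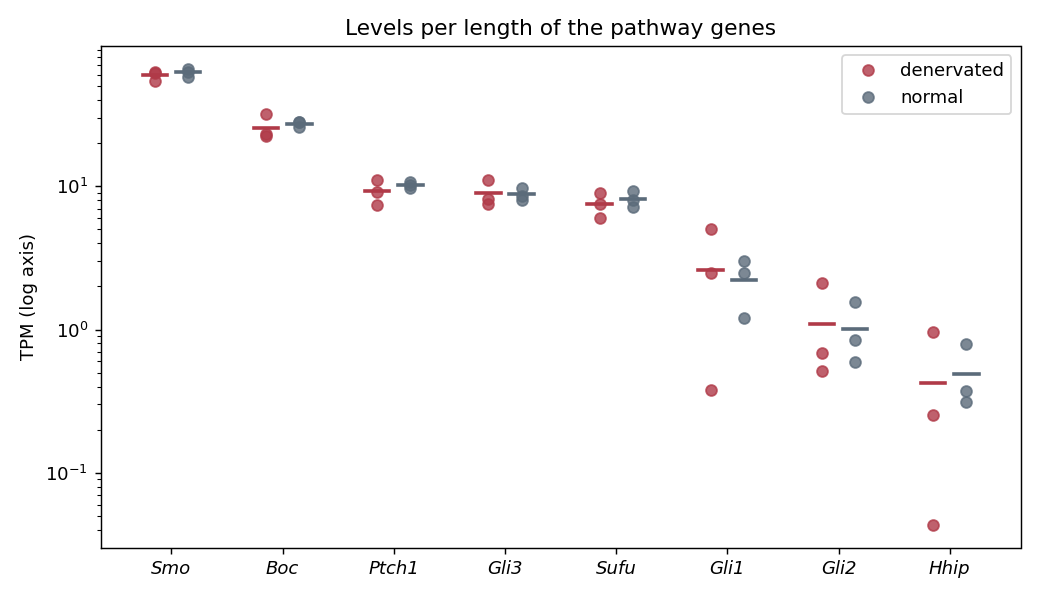
TPM (log axis) of 8 pathway genes in each denervated (left) and normal (right) library, with bars at the mean of 3 libraries. Smo and Boc lie above the others on both sides, and the lowest Gli1 and Hhip points, at 0.381 and 0.0433 TPM, belong to 1 denervated library. Shh is left out because 4 of its 6 libraries are at 0.

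The ligand was barely detected in the sorted cells. Shh (chromosome 5, 28456815 to 28467256, minus strand, mm10) had 0, 0 and 1 counts in the denervated libraries of animals 890, 892 and 899, and 0, 1 and 0 counts in the normal libraries. Taken as 3 counts on the TMM scale, the limit for a count of 0 was 0.323 and 0.218 CPM in the denervated libraries of animals 890 and 892, and 0.113 and 0.214 CPM in the normal libraries of animals 890 and 899. The exact 95% intervals of these 0 counts reached 0.397 and 0.268 CPM in the denervated libraries and 0.138 and 0.264 CPM in the normal ones. No difference between sides was detectable at this depth, and no fold change is given. The other ligand genes, Ihh and Dhh, did not exceed 0.327 and 0.229 CPM in any library and did not enter the test either.

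Genes for ligand release were measured in part and none passed. Of 7 genes in that group, Ihh and Dhh included, 3 were tested, with log2 fold changes between 0.10 and 0.20. Scube2, a secreted protein that helps lipid-modified Hedgehog leave the producing cell, stood at 14.2 ± 2.99 CPM on the denervated side and 12.3 ± 2.91 CPM on the normal side. Its log2 fold change was 0.20 ± 0.18 SE (adjusted p = 0.582, edgeR) and turned to −0.07 without animal 890. Disp1, the transporter that exports Hedgehog, stood at 9.23 ± 2.53 and 8.27 ± 1.07 CPM, in that order (log2 fold change 0.13 ± 0.22 SE, adjusted p = 0.802, edgeR). Without animal 890 it was −0.05, and without animal 899 also −0.05.

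At the cell surface, Ptch1 had less CPM on the denervated side in animals 890 and 892, and did not pass. Ptch1 (chromosome 13, 63508328 to 63573598, minus strand) is both the receptor and a target. It had 32.2, 39.7 and 45.0 CPM in the denervated libraries of animals 890, 892 and 899, against 44.3, 44.2 and 41.2 CPM in the normal libraries. The denervated libraries spread on both sides of the normal ones, which lay close together. Denervated over normal, the log2 fold change was −0.16 ± 0.11 SE (adjusted p = 0.478, edgeR), with an approximate 95% interval of the fold from 0.758 to 1.06. By animal the ratio was 0.725 (0.637 to 0.824) in 890, 0.898 (0.807 to 0.999) in 892 and 1.09 (0.971 to 1.23) in 899. The brackets hold counting intervals, which compare single libraries. The log2 fold change depended on the animals: it was −0.017 without animal 890 and −0.30 without animal 899, and neither passed.

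Hhip encodes a membrane protein that binds and sequesters Hedgehog ligands, and is a target as well. Hhip (chromosome 8, 79965851 to 80058006, minus strand) had 2, 17 and 58 counts in the denervated libraries of animals 890, 892 and 899, which is 0.215, 1.24 and 4.44 CPM. The normal libraries had 46, 32 and 53 counts, which is 1.73, 1.495 and 3.79 CPM. Both libraries of animal 899 were above all others, and the denervated library of animal 890 was below them. There the ratio of denervated to normal was 0.125 (0.0146 to 0.476), against 0.826 (0.430 to 1.53) in animal 892 and 1.17 (0.793 to 1.73) in animal 899. These intervals compare single libraries, not conditions. Over 3 animals the log2 fold change was −0.51 ± 0.46 SE (adjusted p = 0.602, edgeR), and without animal 890 it was 0.03.

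The promoters of the receptor gene and of this decoy gene, the 2 direct targets among the 9 genes with a promoter in the RefSeq table, are shown as the sequences that Gli proteins could act on near the start site. Each is a window of 300 bases, from 250 before to 50 after the RefSeq start (GRCm38.p6), written 5′ to 3′ on the gene's strand, the minus strand. They lie at chr13:63565686-63565985 for Ptch1, which is inside the longer gene of GENCODE M21, and at chr8:80057959-80058258 for Hhip.
Ptch1: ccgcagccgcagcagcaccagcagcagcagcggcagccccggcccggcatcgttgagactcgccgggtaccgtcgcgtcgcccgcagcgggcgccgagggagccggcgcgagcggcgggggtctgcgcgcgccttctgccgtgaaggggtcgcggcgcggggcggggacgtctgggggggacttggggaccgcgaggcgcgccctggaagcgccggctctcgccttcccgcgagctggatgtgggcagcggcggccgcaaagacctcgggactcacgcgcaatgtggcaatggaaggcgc
Hhip: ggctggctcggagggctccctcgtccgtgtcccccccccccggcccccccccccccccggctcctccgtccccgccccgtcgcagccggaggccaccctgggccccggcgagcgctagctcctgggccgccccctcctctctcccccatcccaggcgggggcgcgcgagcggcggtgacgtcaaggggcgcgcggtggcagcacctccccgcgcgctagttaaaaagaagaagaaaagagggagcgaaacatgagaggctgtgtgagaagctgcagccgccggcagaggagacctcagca
Both windows were rich in G and C, at 76.3% for Ptch1 and 73.7% for Hhip. The 9-base Gli motif GACCACCCA was searched on both strands, and neither window held it, exactly or with 1 mismatch, so nothing stands in capitals. The same was true of Smo, Sufu, Gli2 and Gli3, the other genes of the 6 with a window. Of 32851 promoter windows of that length, 0.253% held the exact motif and 6.74% held it with at most 1 mismatch. The absence of these letters from a window says nothing about binding elsewhere in the gene.

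Boc, a co-receptor that presents Shh to Ptch1, did not pass. Boc (chromosome 16, 44485049 to 44558897, minus strand) had 67.0, 66.6 and 86.3 CPM in denervated libraries of animals 890, 892 and 899, against 76.5, 74.8 and 81.2 CPM in normal libraries. Animal 899 was highest on both sides. Boc had a log2 fold change of −0.09 ± 0.08 SE (adjusted p = 0.620, edgeR; 95% interval of the fold 0.829 to 1.07). None of the other 5 genes of reception passed, and all 5 had negative log2 fold changes, from −0.53 to −0.06. Cdon, the co-receptor related to Boc, stood at 73.2 ± 6.06 CPM on the denervated side and 79.7 ± 13.8 CPM on the normal side, and was the lower of the pair in 3 of 3 animals (log2 fold change −0.11 ± 0.08 SE, adjusted p = 0.497, edgeR). Lrp2, an endocytic receptor that binds Shh, was scarce, at 1.27 ± 0.759 and 1.92 ± 1.56 CPM, in that order (adjusted p = 0.537, edgeR).

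**Figure D2:**
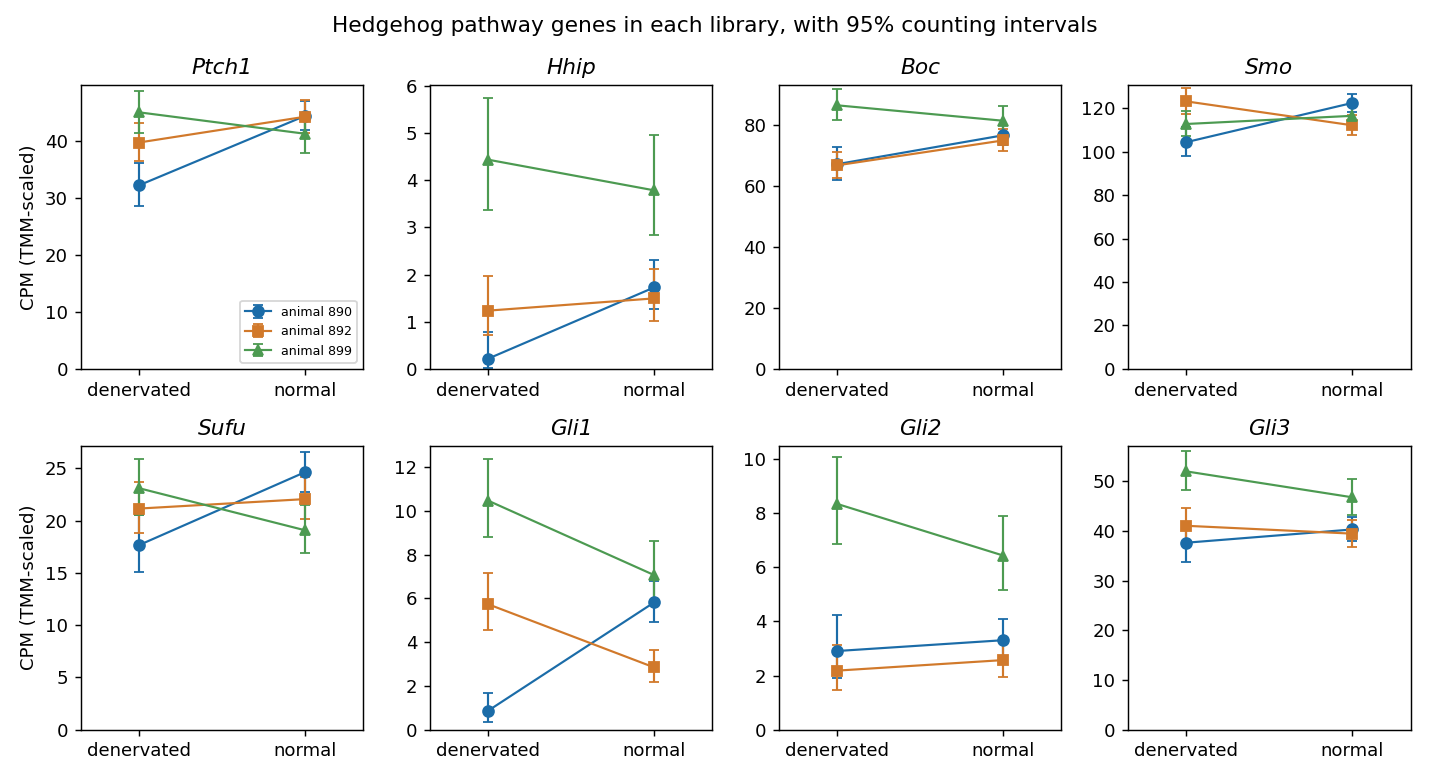
TMM-scaled CPM of 8 pathway genes in the denervated (left) and normal (right) library of each animal, joined by lines, with bars for 95% counting intervals. Lines of different animals slope in different directions in every panel, and the denervated library of animal 890 is the lowest of the 6 for Ptch1, Hhip, Smo, Sufu, Gli1 and Gli3.

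Smo was measured most precisely and did not differ by much. Smo (chromosome 6, 29735503 to 29761365, plus strand), the membrane protein that carries the signal into the cell, had 104, 123 and 113 CPM in denervated libraries of animals 890, 892 and 899, and 123, 112 and 117 CPM in normal libraries. It was higher on the denervated side in animal 892 and lower in the others. Smo had a log2 fold change of −0.05 ± 0.08 SE (adjusted p = 0.819, edgeR), with a 95% interval of the fold from 0.855 to 1.10. Without animal 890 it was 0.05.

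Among 14 further genes of Smo control and the primary cilium, 1 rose and none fell. Of all tested genes, 2.88% rose and 0.577% fell. Arl13b, a small GTPase of the ciliary membrane needed for a normal Hedgehog response in mouse, had 167, 125 and 165 CPM in denervated libraries of animals 890, 892 and 899. In the normal libraries it had 113, 109 and 130 CPM. All 3 animals had more on the denervated side, although the denervated library of animal 892 stood below the normal library of animal 899. The log2 fold change was 0.37 ± 0.08 SE (adjusted p = 0.0300, edgeR). The call was lost when library totals replaced TMM factors (adjusted p = 0.0690, edgeR) and without animal 890 (0.0958). In edgeR it held with DESeq2 size factors (0.0266), the Salmon estimated counts (0.0288) and without animal 892 (0.0134) or 899 (0.0133). DESeq2 with the block also called it (0.00680). It was not called without the block (0.236, edgeR) or in limma on log2(TPM + 1) (0.136). Those fits called at most 1 gene in all, so these losses carry no information. The authors' deposited table gives Arl13b a log2 fold change of 0.40 with an adjusted p of 0.00421. The other 13 cilium genes did not pass, and the group's median log2 fold change was −0.07.

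Sufu (chromosome 19, 46396896 to 46488804, plus strand), which holds Gli proteins in the cytoplasm, had 17.6, 21.1 and 23.1 CPM in denervated libraries of animals 890, 892 and 899, against 24.6, 22.1 and 19.1 CPM in normal libraries. It was lower on the denervated side in animals 890 and 892 and higher in animal 899. Sufu had a log2 fold change of −0.09 ± 0.14 SE (adjusted p = 0.796, edgeR), and without animal 890 it was 0.10. Of 11 tested genes of Gli processing and degradation, none passed. Closest were Ulk3, a kinase of Gli proteins, and Cul3, the scaffold of the ligase that uses Spop. Ulk3 stood at 19.2 ± 0.978 CPM on the denervated side and 24.4 ± 0.358 CPM on the normal side, lower in 3 of 3 animals without overlap (log2 fold change −0.35 ± 0.12 SE, adjusted p = 0.120, edgeR). Cul3 stood at 249 ± 8.72 and 215 ± 13.1 CPM, in that order, higher in 3 of 3 animals (log2 fold change 0.21 ± 0.07 SE, adjusted p = 0.151, edgeR).

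Gli1, which acts as an activator and is itself switched on by the pathway, went in opposite directions in different animals. Gli1 (chromosome 10, 127329882 to 127341974, minus strand) had 8, 79 and 137 counts in denervated libraries of animals 890, 892 and 899, which is 0.861, 5.74 and 10.5 CPM. The normal libraries had 155, 61 and 99 counts, which is 5.82, 2.85 and 7.07 CPM. The denervated side thus held both the lowest and the highest library. The ratio of denervated to normal was 0.148 (0.0627 to 0.299) in animal 890, a difference of 6.76-fold. It was 2.01 (1.42 to 2.86) in animal 892 and 1.48 (1.14 to 1.94) in animal 899, so that sides differed beyond counting error in each animal, but not in 1 direction. These intervals compare single libraries. In animal 890, 4 of 2267 tested genes within 2-fold of the mean level of Gli1 had a lower ratio. Of these 2267 genes, 16 had a higher ratio than Gli1 in animal 892 and 125 in animal 899.

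Over 3 animals the log2 fold change of Gli1 was −0.00 ± 0.42 SE (adjusted p = 0.998, edgeR), and the 95% interval of the fold ran from 0.532 to 1.88. Alternatives moved it both ways, to 0.16 without the block, −0.23 in DESeq2 with the block and −0.24 in limma on log2(TPM + 0.1). Without animal 890 it was 0.77 ± 0.25 SE, and that value did not pass (adjusted p = 0.0670, edgeR). The denervated library of animal 890 was also the shallowest and stood at −37.6 on PC1, the first principal component across genes, where the others ran from −9.73 to 24.5. Its hair matrix and shaft sum was 9.79 CPM and its fibroblast and dermal papilla sum 1.51 CPM, against 8.41 and 1.99 CPM in the normal library of that animal. The hair matrix and shaft sum was 15.04 CPM on the denervated side and 6.96 CPM on the normal side of animal 892. In animal 899 it was 4.44 and 7.79 CPM, in that order. The part of depth, of this library and of these cell types in the Gli1 difference was not tested.

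**Figure D3:**
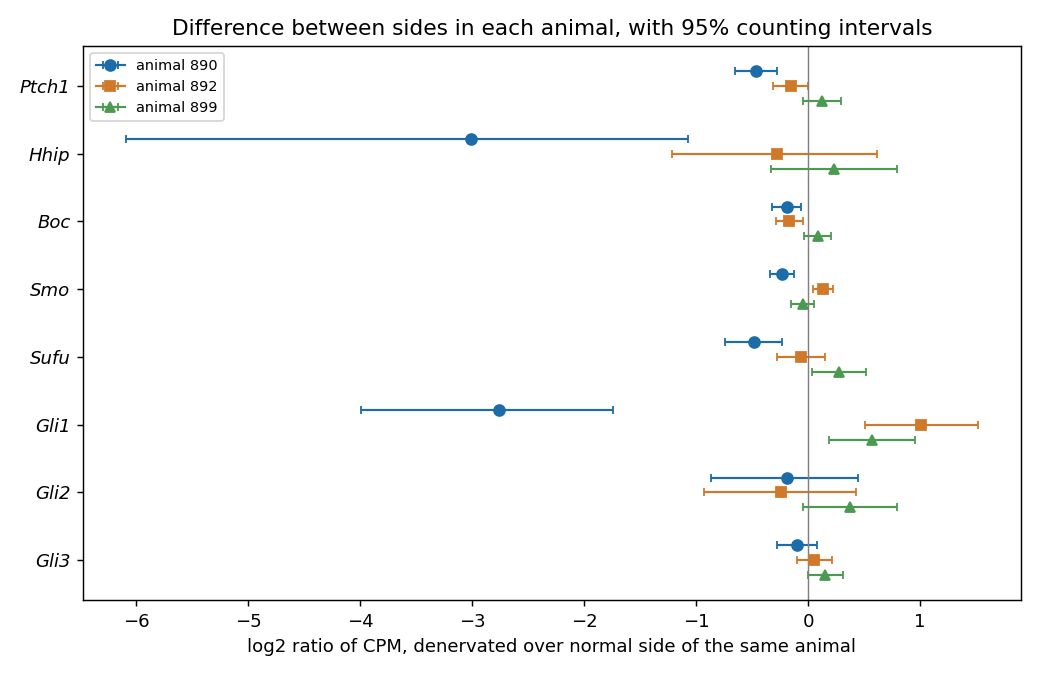
log2 ratio of CPM in the denervated over the normal side of each animal for 8 pathway genes, with bars for 95% counting intervals. Gli1 lies at −2.76 in animal 890 but above 0 in animals 892 and 899, and Hhip at −3.005 in animal 890, while Smo, Boc and Gli3 stay between −0.23 and 0.15.

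Gli2, the main activator that responds to Smo, was low and followed the animal. Gli2 (chromosome 1, 118834132 to 119053619, minus strand) had 2.90, 2.18 and 8.34 CPM in denervated libraries of animals 890, 892 and 899, against 3.30, 2.57 and 6.43 CPM in normal libraries. Both libraries of animal 899 lay above the other 4. The log2 fold change was 0.02 ± 0.26 SE (adjusted p = 0.972, edgeR), and it was −0.04 with library totals and −0.21 without animal 899. Unlike Gli1, Gli2 had ratios of denervated to normal whose counting intervals all held 1, at 0.879 (0.549 to 1.37), 0.848 (0.525 to 1.347) and 1.30 (0.972 to 1.73).

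Gli3, known chiefly as the source of a repressor in the absence of ligand, was the most abundant Gli gene. Gli3 (chromosome 13, 15463235 to 15730026, plus strand) had 37.6, 41.1 and 52.0 CPM in denervated libraries of animals 890, 892 and 899, against 40.3, 39.5 and 46.8 CPM in normal libraries. Animal 899 was highest on both sides here too. Gli3 had a log2 fold change of 0.04 ± 0.09 SE (adjusted p = 0.865, edgeR; 95% interval of the fold 0.894 to 1.18), and −0.02 with library totals or without animal 899. Of the summed TPM of the 3 Gli genes, Gli3 made up 61.0% to 87.5% in denervated libraries and 67.9% to 81.8% in normal libraries. Gli1 made up 4.44% to 27.5% and 12.1% to 21.2%, in that order, with both extremes on the denervated side.

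**Figure D4:**
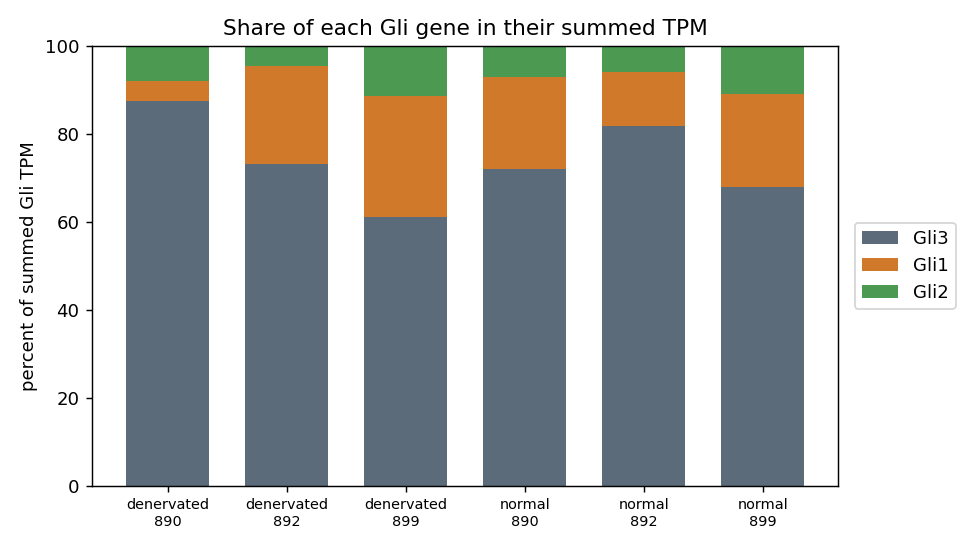
Percent of the summed Gli TPM contributed by Gli3, Gli1 and Gli2 in each denervated (left) and normal (right) library, by animal. Gli3 is the largest share in all 6 libraries, and Gli1 falls between 4.44% in the denervated library of animal 890 and 27.5% in that of animal 899.

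Among the 8 tested genes, Hhip, Gli1 and Gli2 varied most between libraries. Their coefficients of variation of CPM over 6 libraries were 75.3%, 61.2% and 58.3%, where tested genes within 2-fold of their level had medians of 30.7%, 20.3% and 22.7%. Counting error at their mean count would give 17.0%, 10.6% and 12.3%. Smo, at 6.14%, varied less than the median of 8.33% at its level, and Boc, Ptch1, Gli3 and Sufu lay between 10.3% and 12.7%, against medians of 8.84%, 10.1%, 9.96% and 12.2% at their levels. Direction went with the animal: all 8 tested genes were lower on the denervated side in animal 890, 5 in animal 892 and 1, Smo, in animal 899. Among all tested genes the share lower on that side was 51.9%, 51.3% and 52.4%, in that order of animals. The median log2 ratio of the 8 genes was −0.35, −0.11 and 0.19 in these animals. The 8 genes are not independent of each other, so this is a description of these libraries.

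Likeness was measured as Pearson's r of log2 CPM over the 6 libraries, which share 3 animals, among 8726 tested genes with a mean of at least 10 CPM. The profile of Gli1 was closest to Maml2 (0.996), a coactivator gene of Notch, to Ubr2 (0.996), a ubiquitin ligase gene, and to Kdm4b (0.994), a histone demethylase gene. A total of 79 genes exceeded 0.9. Pearson's r does not reflect the size of a change. Gli1 ran from 0.861 to 10.5 CPM over the libraries, Maml2 from 28.4 to 44.2, Ubr2 from 106 to 130 and Kdm4b from 58.0 to 63.3 CPM. The pathway genes were compared with Gli1 whatever their level. Their r was 0.93 for Hhip, 0.81 for Ptch1, 0.79 for Gli3, 0.70 for Boc, 0.70 for Smo, 0.63 for Sufu and 0.57 for Gli2. The profile of Ptch1 was closest to Map3k1 (0.994), Camta1 (0.984) and Pkd1 (0.982), and 130 genes exceeded 0.9. With 6 libraries and 1 of them far from the rest, such values are a description and carry no test.

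Of 16 genes reported as Hedgehog targets in other settings, 11 were tested, of which 1 rose and none fell. The shares among all tested genes were 2.88% and 0.577%, in that order. Sox9, a transcription factor gene of hair follicle stem cells, had 51.3, 48.6 and 78.6 CPM in denervated libraries of animals 890, 892 and 899, against 39.9, 41.3 and 57.9 CPM in normal libraries. All 3 animals had more on the denervated side, and the groups overlapped. The log2 fold change was 0.35 ± 0.09 SE (adjusted p = 0.0442, edgeR), just past the threshold. The call was lost with library totals (adjusted p = 0.0943, edgeR), in DESeq2 with the block (0.0529), and without animal 892 (0.0726) or 899 (0.108). In edgeR it held with DESeq2 size factors (0.0388), the Salmon estimated counts (0.0435) and, barely, without animal 890 (0.0496). Sox9 was not called without the block (0.492, edgeR) or in limma on log2(TPM + 1) (0.209). Those fits called at most 1 gene in all, so these losses carry no information. The log2 fold change stayed between 0.28 and 0.42 under the alternatives run, and the authors' deposited table gives Sox9 0.38 with an adjusted p of 0.0418. The group's median log2 fold change was 0.01. The other 5 genes, Foxf1, Foxf2, Foxe1, Foxd1 and Snai1, did not exceed 0.751 CPM in any library and were not tested. Of these, Foxf1 was lower on the denervated side in each animal. It had 0, 0.0727 and 0.306 CPM in the denervated libraries of animals 890, 892 and 899, against 0.375, 0.420 and 0.714 CPM. The denervated values lie near or below the limit of 3 counts. Foxf2, Foxe1, Foxd1 and Snai1 did not keep 1 direction over the animals.

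Over all 53 genes of the pathway beyond the 9, 44 were tested and 2 rose, Arl13b and Sox9, where 2.88% of all tested genes rose and 0.577% fell. Their median log2 fold change was −0.01.

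**Figure D5:**
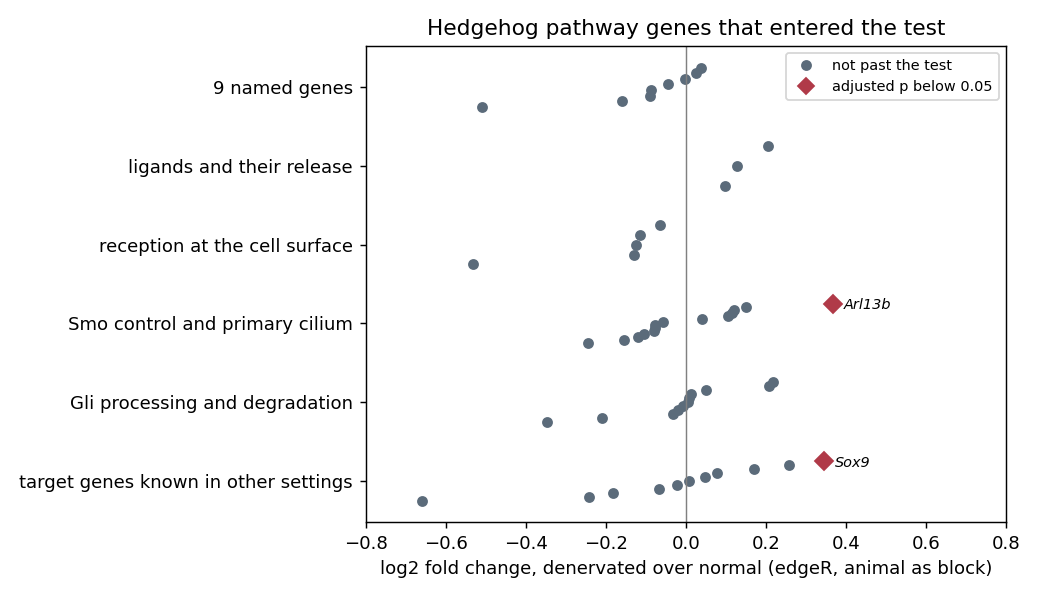
log2 fold change of denervated over normal for each tested pathway gene, by group, with diamonds for an adjusted p below 0.05 in edgeR with the animal as a block. Only Arl13b (0.37) and Sox9 (0.35) are past the threshold among the genes drawn, and the 8 named genes lie between −0.51 for Hhip and 0.04 for Gli3.

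The authors' deposited table gives no adjusted p below 0.05 for the 9 genes. It lists an adjusted p for 4 of them, with 0.728 for Ptch1 as the lowest, and none for Shh, Sufu, Gli1, Gli2 and Hhip. The log2 fold change in the authors' deposited table is −0.14 for Gli1 and −0.71 for Hhip.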

How the data were processed

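Poly(A) RNA of 6 libraries was analysed, 3 denervated and 3 normal, grouped by sample title. Per the submitters' processing notes, STAR 2.6.1a, Salmon 0.11.2 and mm10 were used, without a role for each. Annotation and strand setting: not given in the sources used here. Gene counts, raw and whole, make up the deposited matrix. Each library also has a deposited file of estimated counts (expected counts) and TPM, per the file headers. The authors' deposited comparison holds log2 fold changes, a statistic (score), p-values, adjusted p-values and mean normalised counts (signal), and its group means show that denervated is on top of each fold. Of the 24982 rows, 26 carry date-like names from a spreadsheet. The text names none of them, and they were kept in the fit.

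The fit was edgeR 4.0.16 (R 4.3.3) with TMM factors, filterByExpr (minimum count 10, minimum total 15) and the animal as a block, called at a Benjamini-Hochberg adjusted p below 0.05 over 12310 genes. The block is in the fit because each mouse gave a library of either side, per the labels' protocols. Deviations from group means correlated at 0.356, 0.361 and 0.443 within the 3 same-animal pairs, across genes, which are not independent. Pairs of different animals lay between −0.278 and −0.0407. Deviations from a mean of 3 libraries sum to 0, so these values are tied to each other. The SE was taken as |log2 fold change| divided by √F, and intervals of the fold use the fit's t quantile, which is approximate. CPM is the count over the library total times its TMM factor. DESeq2 1.42.0 and limma 3.58.1 were alternatives, and the fits were tested on simulated data. Estimated counts were rounded to whole numbers.

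The 9 genes, the lists and the tests were chosen with earlier results of these data known. Of each other list the text names the genes that passed, up to 4, or the 2 with the smallest p. It also names the most abundant gene of marker lists and the 3 genes most like Gli1 and Ptch1. Ihh, Dhh, untested targets and further marker genes are named beside these. Krt8, Msx2, Mitf, Itga6 and Krt14 fall under that rule as well, at 0.449, 4.61, 17.1, 1623 and 13862 CPM on the denervated side and 0.661, 4.94, 16.1, 1424 and 12560 CPM on the normal side. The leading gene of 1 marker list is not reported here. Positions come from GENCODE M21. Protein sequences were not used here, so the planned comparison of zinc fingers was not made.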

Additional observations from a re-analysis of the deposited data

How the results depend on the processing

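None of the 8 tested genes was called under an alternative that gave it an adjusted p. The fits that called at most 1 gene in all carry no information on this, and DESeq2 gave no adjusted p to Sufu, Gli1, Gli2 and Hhip. Directions of values near 0 turned. The log2 fold change of Gli1, −0.00, was 0.16 with no replicate block, 0.0071 with DESeq2 size factors, 0.0054 with no filter on low counts, 0.071 with the Salmon estimated counts, −0.23 in DESeq2, −0.24 in limma on log2(TPM + 0.1) and between −0.55 and 0.77 when an animal was left out. With library totals Gli2 was −0.035 and Gli3 −0.023, and in limma on log2(TPM + 0.1) Gli2 was −0.010. With an animal left out, Ptch1 ranged between −0.30 and −0.017, Boc between −0.18 and −0.034, Gli2 between −0.21 and 0.15, Gli3 between −0.019 and 0.10, Smo between −0.12 and 0.045, Sufu between −0.26 and 0.10, Hhip between −1.18 and 0.026, Disp1 between −0.053 and 0.50 and Scube2 between −0.073 and 0.39. The cause of these turns was not tested.

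The count of all called genes, 426 with the block, was 0 with no replicate block, 987 with no filter on low counts, 1 in each of the 3 limma fits on TPM, and 248 to 976 when an animal was left out. The count of called genes in the other pathway lists, 2, was 0 with library totals and 3 with no filter on low counts. It was 1 to 5 when an animal was left out. It stayed at 2 in DESeq2, with DESeq2 size factors, with the Salmon estimated counts and with at least 1 CPM in 3 libraries. It was 0 with no replicate block and in each limma fit, which called at most 1 gene in all. Library totals shifted the median log2 fold change of all genes to −0.09, against −0.02 with TMM factors, and the share of called genes that were higher was 59.3%, against 83.3%. Leaving out an animal removed both of its libraries. Depth limits Shh, with 2 counts in all, and Hhip in the denervated library of animal 890.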
